A study of Homo sapiens with 16 samples.

Results

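The comparison described here is that of 12 h with 6 h of culture in HepG2 cells, an established human hepatoma line, transduced with a recombinant adenovirus that expresses LacZ. LacZ encodes bacterial beta-galactosidase and served as the control virus of a study of GPI-phospholipase D (GPI-PLD), an enzyme that cleaves the glycosylphosphatidylinositol anchors of cell surface proteins. The arrays were chosen by their labels alone, LacZ virus with 6 h or 12 h of culture, which gave 8 of the 16 arrays, 4 at each time. The other 8 arrays hold cells given the GPI-PLD adenovirus, 4 at 6 h and 4 at 12 h. Each array received target made from 10 microgram of total RNA. Every group carried an adenovirus, and neither an uninfected culture nor a time before infection is among the 16 arrays, so that effects of infection, medium and time in culture on a difference between 6 h and 12 h cannot be told apart. The labels do not say if each group's 4 arrays stem from independent cultures. The p-values therefore cover only the array-to-array spread, which may be technical.

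HepG2 cells keep many functions of hepatocytes, including the secretion of plasma proteins. Cells that meet a shortage of amino acids, unfolded protein in the endoplasmic reticulum, oxidants or viral RNA phosphorylate the initiation factor eIF2, which lowers bulk translation while the mRNA of the transcription factor ATF4 is translated better. ATF4 then acts with C/EBP partners on genes for amino acid synthesis, amino acid import and tRNA charging, and on a set of feedback regulators. The cell cycle genes described below fall into those of DNA replication, which are controlled mainly by E2F factors, and those of mitosis, many of which carry CCAAT boxes and a cell cycle homology region in their promoters.

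The signals were MAS5 intensities on a linear scale. In the LacZ arrays ALB, the plasma albumin gene, read 83643 ± 5221 (SD) at 6 h and 84290.1 ± 4465 at 12 h, and AFP, the fetal albumin relative made by hepatoma cells, read 73002 ± 7243 and 71349.5 ± 3900.0 (n = 4 at each time). Of 15 listed hepatocyte and HepG2 markers 13 were tested and limma called 0 at an adjusted p under 0.05, with 1 higher and 0 lower at an unadjusted p under 0.05. The summed signal of the 13 markers ran from 489814 to 554169 at 6 h and from 510698 to 563092 at 12 h. Markers of fibroblasts and stellate cells summed to between 4613 and 5332 at 6 h and between 4460.4 and 4827 at 12 h, with COL1A1 and ACTA2 the brightest. Of the immune markers LYZ carried most of the signal, at 8673 ± 2539 and 11455 ± 1682, while PTPRC, the pan-leukocyte gene, read 138.0 ± 66.4 and 65.7 ± 49.2. Of the bile duct markers, which hepatoma cells share in part, SPP1 rose 1.33-fold. The 7 endothelial markers, of which 1 was bright enough to be tested and limma called 0 (0 at an unadjusted p under 0.05), summed to between 303.0 and 823 at 6 h and between 809 and 1184 at 12 h. Array medians ran from 304.5 to 344.7 at 6 h and from 323.0 to 352.5 at 12 h, and the mean correlation of an array with the others of its group was 0.953 to 0.958 and 0.960 to 0.961. The ratio of 3′ to 5′ GAPDH probe sets, a measure of RNA integrity, was 0.864 to 0.952 at 6 h and 0.928 to 1.07 at 12 h. The same ratio for ACTB was 1.2 to 1.54 at 6 h and 1.1 to 1.54 at 12 h. The part of such differences between arrays in the results was not tested. The first principal component, with 24.7% of the variance of the 8 arrays, separated the times, and LacZ 6 h replicate 3 lay farthest out on the next component.

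Limma tested 8109 genes, each read by its brightest probe set, and called 559 of them (6.89%) different between 12 h and 6 h at a Benjamini-Hochberg adjusted p under 0.05. At 12 h 295 genes (3.64%) were higher and 264 (3.26%) lower. Log2 differences are those of signal + 63, a pseudocount that makes the change of dim genes look smaller than it is. The called genes had a median log2 difference of 0.61 where higher and -0.45 where lower, while the median of all tested genes was 0.005. The larger changes were mostly rises: 59 called genes were at least 2-fold higher and 13 at least 2-fold lower. Arrays of the 2 times did not overlap for 543 genes in the higher direction (6.70%) and 507 in the lower (6.25%). The median 95% confidence interval of a difference reached 0.35 to either side on the log2 scale, a 1.28-fold change. The interval is not adjusted for the number of genes, so that calls at this precision needed larger differences. In the simulation described below 49.3% of genes changed 1.5-fold were recovered, so that a gene not called may still differ. Calls were unevenly spread over brightness. With the tested genes cut into 5 equal bins of mean signal, 8 genes of the dimmest bin were higher and 4 lower, and of the brightest bin 127 were higher and 165 lower. When arrays were scaled to a common 75th percentile instead, 243 genes were higher and 391 lower, so that the share of higher calls fell from 52.8% to 38.3%, and the median of all genes moved to -0.04.

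**Figure D1:**
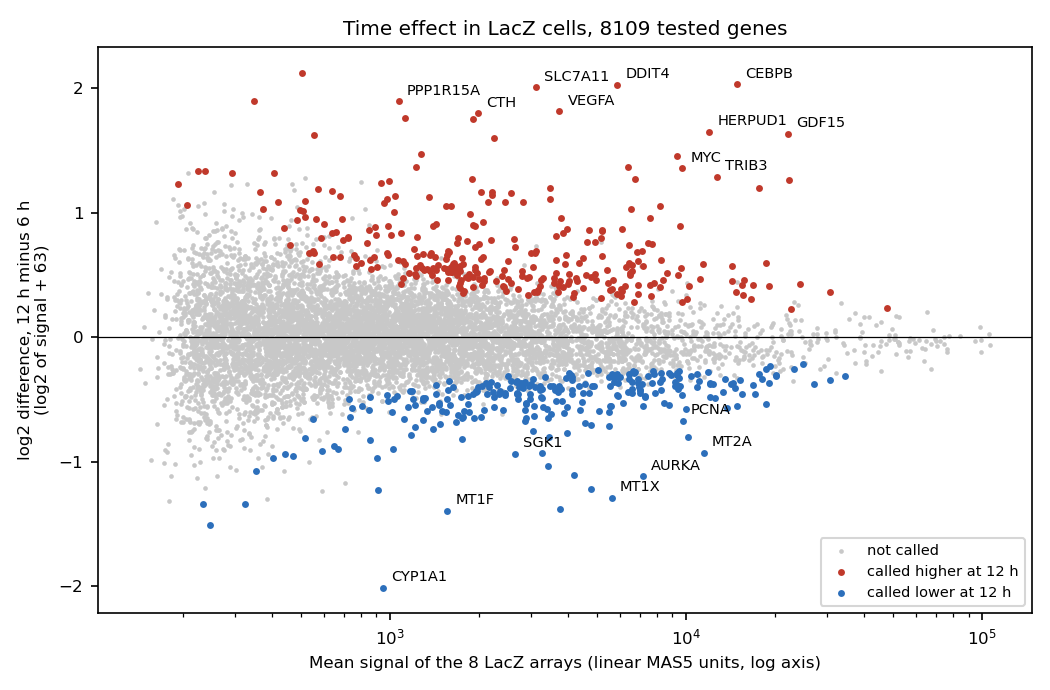
Each point is a tested gene, placed by its mean signal over the 8 LacZ arrays (horizontal log axis) and its log2 difference between 12 h and 6 h (vertical axis). Red points are the 295 genes called higher and blue points the 264 called lower, and CEBPB, DDIT4 and SLC7A11 are among the largest rises and CYP1A1 is the largest fall.

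The 20 largest rises that met the naming rule ran from CEBPB (log2 2.03) to IGFBP1 (log2 1.26), and 11 of them belong to the lists of stress factors, translation brakes, amino acid genes and secreted regulators described next. The 20 largest falls ran from CYP1A1 (log2 -2.01) to TACC3 (log2 -0.72), and hold 7 metallothionein genes and 7 genes of the cell cycle lists. Of the 559 called genes 233 stood in at least 1 of the 47 lists and 326 in none.

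Stress response transcription factors and immediate early genes were the lists with the largest shares of higher calls. The first of these lists holds 24 genes, among them regulators such as the pseudokinases TRIB1 and TRIB3, and 20 were tested. Of the 20, 10 (50%) were called, all higher at 12 h, with a median log2 difference of 0.55 over the 20. CEBPB, a bZIP factor of liver and stress responses, read 6290.4, 5389, 6112 and 5421 on the 6 h arrays and 22556, 25785, 24432 and 22946 on the 12 h arrays. Its 12 h arrays all lay far above its 6 h arrays, a rise of 4.09-fold (log2 2.03 ± 0.09 SE, adjusted p = 1.02e-13). ATF3, a stress-induced bZIP factor, read 346, 673, 405 and 524 at 6 h against 1717, 1834, 1743 and 1728 at 12 h. The 12 h values were tightly grouped and the 6 h values spread more widely, without overlap (3.39-fold, log2 1.76 ± 0.18, adjusted p = 2.53e-07). DDIT3, which encodes CHOP, a factor linked to death under prolonged endoplasmic reticulum stress, read 789.8, 1198, 1194 and 1182 at 6 h and 3721, 3366, 3411 and 3078 at 12 h. LacZ 6 h replicate 1 was its lowest array, and the rise was 3.03-fold (adjusted p = 5.99e-08). TRIB3, a pseudokinase that binds ATF4 and restrains it, read 6687, 8101, 8338 and 6439 at 6 h and 16727, 19262, 17686 and 18508 at 12 h, a rise of 2.44-fold (adjusted p = 2.36e-10). ATF4 itself had a smaller difference than these, from 11656, 12451, 11988 and 9974 to 15861, 17938, 17749.9 and 17063. Its arrays did not overlap between the times, and the rise was 1.49-fold (log2 0.58 ± 0.09, adjusted p = 8.27e-05).

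The remaining called members were NFIL3, a bZIP repressor (2.29-fold), NUPR1, a small stress-induced chromatin protein (2.24-fold), TRIB1, a pseudokinase that directs C/EBP degradation (1.79-fold), CEBPG, a dimer partner of ATF4 (1.43-fold), and CEBPZ. The call of CEBPZ (log2 0.49, adjusted p = 0.0318) was lost with 4 of the 8 arrays left out in turn, the adjusted p reaching 0.135 without LacZ 12 h replicate 2, and also with plain variance moderation (adjusted p = 0.0764) and with scaling to the 75th percentile. CEBPA, the hepatocyte member of the C/EBP family, was not called and had a log2 difference of -0.18 ± 0.14. XBP1, the transcription factor of the IRE1 branch, stood just outside the threshold with log2 0.29 ± 0.09 (adjusted p = 0.0506), and ATF6 read 581 ± 211 at 6 h and 1112 ± 262 at 12 h without a call (adjusted p = 0.0862, called where the 8 LacZ arrays were fitted alone).

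Among 19 tested eIF2 kinases, phosphatases and translation brakes 4 were called (21.1%), all higher, while the median of the list was 0.01. The called members were regulators rather than the kinases. PPP1R15A encodes GADD34, the subunit that returns eIF2 to its active form. It read 437, 520.3, 276 and 463 at 6 h and 1815, 1674, 1818 and 1555 at 12 h. The 12 h arrays stood far above the 6 h arrays, of which replicate 3 was lowest (3.72-fold, adjusted p = 9.55e-08). DDIT4, also called REDD1, an inhibitor of the mTORC1 kinase, read 1920.4, 1973, 2363 and 2885 at 6 h and 9194, 9241, 10453 and 8751 at 12 h. This was a 4.08-fold rise without overlap (log2 2.03 ± 0.17, adjusted p = 5.99e-08). EIF4EBP1, the repressor of cap binding that mTORC1 controls, rose 1.44-fold (adjusted p = 0.00709). EIF2S2, the beta subunit of eIF2, was called from its brightest probe set (1.34-fold), but its other probe set moved the opposite way and the mean of both gave an adjusted p of 0.982. Of the eIF2 kinases, EIF2AK3 (PERK) had a log2 difference of 0.26 ± 0.13 and EIF2AK2 (PKR) of 0.34 ± 0.34, and neither was called.

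**Figure D2:**
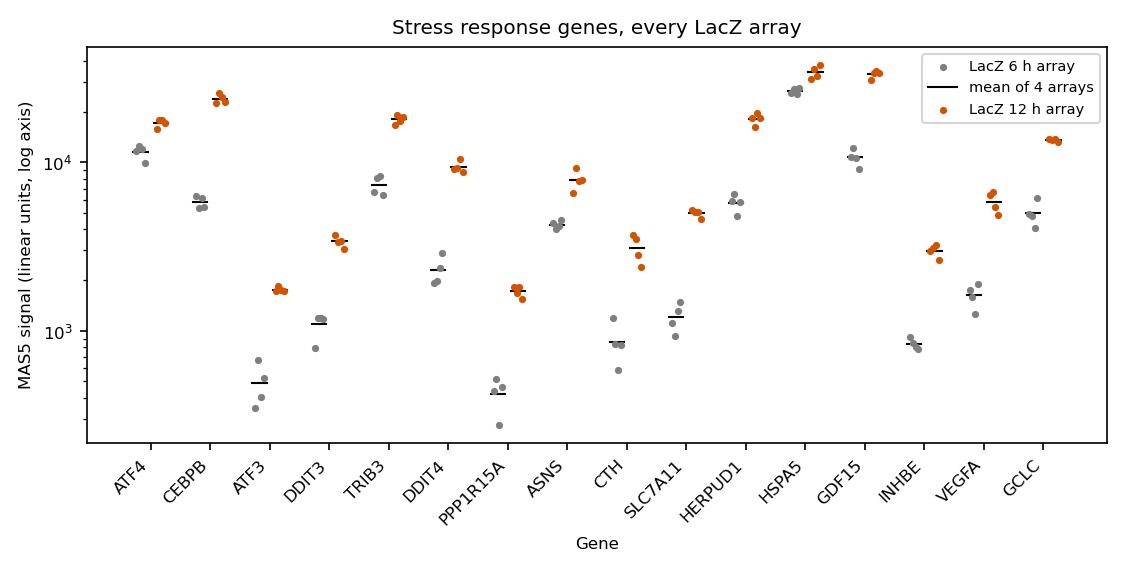
Signals of 16 stress response genes on every LacZ array (vertical log axis, MAS5 units), grey for the 4 arrays at 6 h and orange for the 4 at 12 h, with a black line at each mean of 4. For each of the 16 genes the lowest 12 h array lies above the highest 6 h array.

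All called genes of amino acid synthesis, amino acid transport and cytosolic tRNA charging were higher at 12 h, while most members of these lists were not called. In amino acid synthesis 7 of 19 tested enzymes were called (36.8%), all higher, with a list median of 0.33. CTH, the enzyme that makes cysteine from cystathionine, read 1187, 839, 584 and 828 at 6 h and 3692, 3490.4, 2833 and 2381 at 12 h. The lowest 12 h array was about as far above the highest 6 h array as the 12 h arrays differed among themselves, and the rise was 3.47-fold (log2 1.80 ± 0.16, adjusted p = 5.99e-08). ASNS, asparagine synthetase, a standard ATF4 target, read 4358, 4007, 4187 and 4539 at 6 h and 6586, 9265, 7757 and 7919 at 12 h (1.82-fold, adjusted p = 4.47e-07). MTHFD2 and SHMT2 of mitochondrial one-carbon metabolism rose 1.86-fold and 1.43-fold, and GOT1, the cytosolic aspartate aminotransferase, rose 1.51-fold. CBS (log2 0.64) and ASS1 (log2 0.34) were called in all arrays together, but CBS lost its call with 2 arrays left out in turn (adjusted p up to 0.0692, without LacZ 6 h replicate 3) and ASS1 with 4 (up to 0.0789, without LacZ 6 h replicate 1) and with scaling to the 75th percentile. The serine pathway enzymes were not called. PHGDH had a log2 difference of 0.28 ± 0.13, PSAT1 of 0.18 ± 0.12 and PSPH of 0.33 ± 0.15, the last called where its probe sets were averaged or LacZ 6 h replicate 1 was left out.

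Of 22 tested amino acid transporters 5 were called (22.7%), all higher, with a median of 0.27. SLC7A11, which imports cystine in exchange for glutamate, read 1113, 931, 1316 and 1482 at 6 h and 5207, 5097, 5096 and 4607 at 12 h. The 12 h arrays lay close together and far above the 6 h arrays (4.03-fold, log2 2.01 ± 0.12, adjusted p = 1.23e-10). SLC3A2, the heavy chain that SLC7A11 needs to reach the membrane, rose 2.16-fold (adjusted p = 2.46e-08). SLC38A1 and SLC1A5, carriers of glutamine, rose 1.69-fold and 1.60-fold, and SLC7A1, the carrier of arginine and lysine, rose 1.52-fold. Among the cytosolic aminoacyl-tRNA synthetases, the enzymes that load tRNAs, 6 of 17 were called (35.3%), all higher, with a median of 0.19. CARS1, the cysteine enzyme, read 2761, 2643, 2892 and 2845 at 6 h and 4664, 5696, 5091 and 5097 at 12 h (1.82-fold, adjusted p = 4.79e-07). GARS1, SARS1 and TARS1, for glycine, serine and threonine, rose 1.68-fold, 1.57-fold and 1.43-fold. YARS1 and IARS1 were also called, but less firmly: leaving out 1 of the arrays ended the call of YARS1 (adjusted p = 0.0648) and each of 6 arrays that of IARS1 (adjusted p up to 0.0997). Of the 9 tested mitochondrial synthetases limma called 0 (0 higher and 2 lower at an unadjusted p under 0.05), and their median was -0.06.

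The promoters of the called stress and amino acid genes were searched for a motif of ATF4 and C/EBP dimers, and several hold it. Since these lists gather gene classes on which ATF4 acts, a raised share follows from their choice and is no independent result. The motif searched was TGATGNAA, the core of the composite element to which ATF4 and C/EBP dimers bind, on both strands, from 250 bases before to 50 after the first RefSeq start listed for a gene (build GRCh38.p14). Promoters were matched for 6711 of the 8109 tested genes. The motif stood in 9 of the 23 matched promoters of called members of the stress factor, amino acid synthesis, transporter and cytosolic synthetase lists (39.1%). Of all their tested members, 12 of the 60 matched promoters held it (20%). By list it stood in 1 of 8 called stress factors, 2 of 6 synthesis enzymes, 3 of 4 transporters and 3 of 5 synthetases. The matched promoters of CEBPB, DDIT3 and TRIB3 held no match. The motif stood in 14 of 245 promoters of all genes called higher (5.71%) and in 0 of 227 of those called lower. Its share was 122 of all 6711 tested (1.82%) and 3.67% of the 27305 promoters in the RefSeq table. A match is a description of the letters in the window and not evidence of binding. In the windows below, printed 5′ to 3′ on the gene's strand, capitals mark the motif or its reverse complement. They are ASNS (chr7:97872419-97872518, minus strand), ATF3 (chr1:212565167-212565266, plus strand), GOT1 (chr10:99430765-99430864, minus strand) and SLC38A1 (chr12:46266507-46266606, minus strand).
ASNS: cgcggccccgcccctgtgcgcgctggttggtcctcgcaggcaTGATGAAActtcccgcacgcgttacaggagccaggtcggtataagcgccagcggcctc
ATF3: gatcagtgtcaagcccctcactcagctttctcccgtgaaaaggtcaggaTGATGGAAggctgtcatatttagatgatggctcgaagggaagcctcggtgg
GOT1: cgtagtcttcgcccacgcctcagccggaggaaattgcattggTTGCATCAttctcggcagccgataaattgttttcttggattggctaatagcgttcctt
SLC38A1: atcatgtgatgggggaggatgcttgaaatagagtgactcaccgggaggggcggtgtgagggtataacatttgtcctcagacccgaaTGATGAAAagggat
Counted from the start, with negative positions before it, the match began at -68 in ASNS, -191 in ATF3, -198 in GOT1 and -4 in SLC38A1.

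The list of endoplasmic reticulum folding and quality control held 35 tested genes, of which 10 were called higher (28.6%) and 1 lower, with a median of 0.15. HERPUD1, a membrane protein of the degradation machinery, read 5879, 6522, 4831 and 5831 at 6 h and 18244, 16294, 19679.6 and 18471 at 12 h, a 3.14-fold rise without overlap (adjusted p = 6.22e-11). DNAJB9, a cochaperone of the lumen, rose 2.58-fold (adjusted p = 2.38e-10). HYOU1, a large lumenal chaperone, rose 1.69-fold, MANF, a secreted stress protein, 1.43-fold, SEL1L and DERL2 of the retrotranslocation complex 1.40-fold and 1.38-fold, and OS9, which recognises trimmed glycans, 1.58-fold. HSPA5, the main lumenal chaperone BiP, had a smaller difference. It read 25951, 27437, 25545 and 27755 at 6 h and 31166, 36078, 32591 and 37912 at 12 h. The arrays did not overlap, and the 1.29-fold rise was called (adjusted p = 0.00725), though not with plain variance moderation (adjusted p = 0.0539). SEC61B, a subunit of the translocation channel, fell by 0.55 on the log2 scale (adjusted p = 0.00229). PDIA4, a lumenal disulfide isomerase, had a log2 difference of 0.06 ± 0.09 and was not called, and its other probe set differed in sign.

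AP-1, EGR and other immediate early genes, which cells transcribe within minutes of a stimulus, gave 16 higher and 1 lower among 31 tested (51.6% and 3.23%), with a median of 0.64, the highest of the 47 lists. IER3, an early gene that limits cell death, read 10851, 11548, 10349 and 9856 at 6 h and 21825, 24599, 25763 and 26083 at 12 h (2.30-fold, adjusted p = 2e-09). EGR1, a zinc finger factor, read 1676, 1272, 1089.6 and 1404 at 6 h and 3390.4, 3237, 3340.3 and 2317 at 12 h. LacZ 12 h replicate 4 was lower than the other 12 h arrays and still above all 6 h arrays, and the rise was 2.20-fold (adjusted p = 4.61e-06). MAFF, a small MAF factor, rose 2.58-fold, JUN and FOSL1 of the AP-1 complex rose 2.08-fold and 3.08-fold, and IER2, BTG1 and PHLDA1 rose 2.04-fold, 1.98-fold and 1.80-fold. The proto-oncogene MYC, a driver of growth, rose 2.56-fold, from 5419 ± 127 to 14013 ± 951 (adjusted p = 3.55e-08). SGK1, a kinase gene induced by glucocorticoids and serum, was the called member that fell. It read 2967, 3678, 3847 and 3503 at 6 h and 1675, 1845, 1844 and 1807 at 12 h, with all 12 h arrays below the lowest 6 h array (1.91-fold lower, adjusted p = 1.2e-05). SIK1, a kinase induced by cAMP, rose 2.77-fold, and PIM1, a survival kinase, 2.41-fold.

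Of 19 tested dual specificity phosphatases and genes of growth factor feedback 5 were called (26.3%), all higher, and 7 had a negative difference, with a median of 0.23. DUSP1, a phosphatase of stress-activated MAP kinases, read 1649.8, 1381, 1559 and 1566 at 6 h and 2986, 3337, 3319 and 3749.5 at 12 h, a 2.13-fold rise without overlap (adjusted p = 1.14e-07). DUSP5, a nuclear ERK phosphatase, rose 2.36-fold, SPRY4, a Sprouty inhibitor of ERK signalling, 2.24-fold, and the receptor gene EPHA2 1.87-fold. DUSP6 was called as well (log2 0.53), but lost its call with each of 7 arrays left out in turn (adjusted p up to 0.132). JAG1, a membrane ligand of Notch receptors, rose 2.41-fold (adjusted p = 4.96e-07). Of 28 tested genes of TGF-beta and BMP feedback 4 were called (14.3%), all higher. They were TGIF1, a corepressor of SMAD proteins (2.24-fold), ACVR1, a BMP type I receptor (1.79-fold), BAMBI, a decoy receptor (1.45-fold), and ID2 (1.45-fold), whose probe sets averaged together gave an adjusted p of 0.226.

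Secreted stress regulators were higher at 12 h in 7 of 21 tested genes (33.3%), with a median of 0.37. GDF15, a circulating signal of cell stress that lowers appetite through the brain stem, read 10819, 12255, 10679.5 and 9159 at 6 h and 30737, 33775, 34841 and 33913 at 12 h. The rise was 3.11-fold (log2 1.64 ± 0.10, adjusted p = 6.22e-11). INHBE, a liver-secreted inhibin subunit, read 921, 849, 801 and 784 at 6 h and 2990.4, 3083, 3213 and 2618 at 12 h (3.37-fold, adjusted p = 1.58e-09). VEGFA, the angiogenic growth factor, read 1755, 1589, 1255 and 1887 at 6 h and 6383, 6703, 5434 and 4854 at 12 h (3.52-fold, adjusted p = 7.55e-10). In all 3 genes every 12 h array exceeded every 6 h array by more than the spread within either time. STC2, a secreted glycoprotein of stress responses, rose 2.08-fold, FST, the activin antagonist follistatin, 1.47-fold, ANGPTL8, a regulator of lipoprotein lipase, 2.26-fold, and LIF, a cytokine of the interleukin 6 family, 1.93-fold. IGFBP1, the insulin-regulated IGF binding protein of liver, read 18372, 14838, 8138 and 12694 at 6 h and 31974, 34634, 28890.2 and 29288 at 12 h. Its 6 h arrays were spread over more than 2-fold, with replicate 3 lowest, and did not reach the 12 h arrays (2.39-fold, adjusted p = 0.000105).

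In the hypoxia response list 6 of 31 tested genes were called (19.4%), all higher, with a median of 0.16. VEGFA and STC2 stand in this list too. BHLHE40, a circadian and hypoxic repressor, rose 2.18-fold, and HIF1A, the oxygen-regulated factor itself, 1.34-fold (adjusted p = 0.00254). PLIN2, the coat protein of lipid droplets, was called from its brightest probe set (1.51-fold) while its other probe set moved the opposite way, and their mean gave an adjusted p of 0.798. KDM3A, a histone demethylase, was called (log2 0.49), but not with either of 2 arrays left out (adjusted p up to 0.057, without LacZ 6 h replicate 2). Other standard hypoxia genes were not called: BNIP3 had a log2 difference of -0.10 ± 0.10 and ADM, adrenomedullin, of 0.22 ± 0.18. None of the 28 tested glycolysis genes was called by limma, with 2 higher and 2 lower at an unadjusted p under 0.05.

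NRF2 antioxidant targets gave 11 higher calls among 32 tested genes (34.4%), with a median of 0.13. NFE2L2, which encodes NRF2, read 5244 ± 109 at 6 h and 7878 ± 208 at 12 h (1.5-fold, adjusted p = 4.52e-06). GCLC, the catalytic subunit of the first enzyme of glutathione synthesis, read 4938, 4779, 4056 and 6161 at 6 h and 13765, 13525, 13837 and 13298 at 12 h. The 12 h arrays were nearly equal and lay more than 2-fold above the highest 6 h array (2.74-fold, log2 1.45 ± 0.10, adjusted p = 6.1e-10). GCLM, its regulatory partner, rose 1.94-fold, TXNRD1, thioredoxin reductase, 1.94-fold, SQSTM1, the autophagy receptor p62, 1.81-fold, and AKR1B10 and ABCC2, an aldo-keto reductase and a conjugate exporter, 1.47-fold and 1.53-fold. NQO1, a quinone reductase, changed 1.23-fold (adjusted p = 0.00752). HMOX1, heme oxygenase, was called (log2 0.66, adjusted p = 0.0256) but lost its call with 5 arrays left out in turn (adjusted p up to 0.0951, without LacZ 12 h replicate 2).

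Metallothioneins, small cysteine-rich proteins that bind zinc and copper and are induced by metals and glucocorticoids, gave lower calls. Of 13 tested genes of the metallothionein and metal list 6 were lower (46.2%), all of them metallothioneins, and 1, the zinc and iron carrier SLC39A14, was higher, with a list median of -0.47. MT2A, the most widely expressed of them, read 13459, 16283, 14255 and 16167 at 6 h and 6972, 7417, 8504 and 8641 at 12 h. The signal at 12 h was about that of 6 h divided by 1.90, without overlap (log2 -0.93 ± 0.09, adjusted p = 1.53e-07). MT1X read 7187, 7628, 7567 and 9480.2 at 6 h and 2487, 3269.6, 3213 and 4029 at 12 h (2.44-fold lower, adjusted p = 3.29e-06). MT1F was 2.63-fold lower, MT1E 2.15-fold and MT1H 2.61-fold, and MT1G 2.05-fold, although the mean of the probe sets of MT1G gave an adjusted p of 0.157. The related locus MT1HL1 fell by 1.22 on the log2 scale, a call lost with 5 arrays left out in turn (adjusted p up to 0.105, without LacZ 12 h replicate 1). These genes are near-identical copies and probe sets may read several of them, so that the fall belongs to the family more surely than to any member. The call of SLC39A14 was lost with each of 4 arrays left out. SLC30A1, the zinc exporter, had a log2 difference of -0.11 ± 0.13 and was not called. The metal response element core TGCACNC, a motif searched after the values were seen, stood in all 3 matched promoters of called metallothioneins (MT1H, MT1X and MT2A) against 4 of the 7 matched promoters of all tested members of the list (57.1%) and 11.3% of all tested promoters. The window of MT2A (chr16:56608404-56608583, plus strand, GRCh38.p14, 5′ to 3′) has the core or its reverse complement in capitals.
MT2A: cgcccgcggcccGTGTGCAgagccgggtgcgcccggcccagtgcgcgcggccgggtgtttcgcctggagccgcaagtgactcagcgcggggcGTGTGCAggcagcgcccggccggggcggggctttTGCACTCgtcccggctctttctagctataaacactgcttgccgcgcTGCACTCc
The window holds 4 matches, the nearest of which begins at -8 from the start.

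CYP1A1, the cytochrome P450 that the aryl hydrocarbon receptor (AHR) induces, had the largest fall of the named genes. It read 1521, 1711, 1558 and 1362 at 6 h and 247, 575, 403 and 203 at 12 h. The 12 h arrays differed among themselves more than 2-fold, yet the highest was below the lowest 6 h array, a 4.03-fold fall (log2 -2.01 ± 0.20, adjusted p = 2.9e-07). No other AHR target was called lower by limma. Of 7 tested AHR targets CYP1A1 was the called member that fell and NQO1 the called member that rose, and TIPARP, a feedback inhibitor of the receptor, had a log2 difference of 0.27 ± 0.16. The receptor gene AHR read 663 ± 119 at 6 h and 691 ± 197 at 12 h and was not called. In the wider list of 34 tested cytochrome P450 and conjugation enzymes EPHX1, the microsomal epoxide hydrolase, was higher (1.51-fold) and MGST2 lower. The call of MGST2 was lost with each of 3 arrays left out in turn.

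Calls among genes of DNA replication and of mitosis were all lower at 12 h. Limma called 0 members of either list higher, with 1 S phase gene and 0 mitotic genes higher at an unadjusted p under 0.05. In the S phase list 19 of 58 tested genes were lower (32.8%), 53 of the 58 had a negative difference, and the median was -0.32. PCNA, the sliding clamp of DNA polymerases, read 11573, 10629.6, 12484 and 13288 at 6 h and 6721, 7587, 7838 and 7857 at 12 h. The times were separated by a wide gap (1.59-fold lower, log2 -0.67 ± 0.11, adjusted p = 0.000236). MCM2, a subunit of the replicative helicase, read 4788, 5977, 6097 and 5732 at 6 h and 3434, 3147, 3613 and 3646 at 12 h (1.62-fold lower, adjusted p = 5.25e-05). MCM10, which activates the helicase, was 1.96-fold lower, GINS1, another helicase partner, 1.69-fold, MCM4 and MCM3 1.56-fold and 1.39-fold, MSH6, of mismatch repair, 1.57-fold, POLE3 1.52-fold and GMNN, the licensing inhibitor geminin, 1.39-fold. CDC6, a licensing factor, had a log2 difference of -0.20 ± 0.12 and was not called.

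In the G2 and mitosis list 25 of 77 tested genes were lower (32.5%), 76 of the 77 had a negative difference, and the median was -0.34. CCNB1, the mitotic cyclin B1, read 5456, 5287, 6487 and 6459.6 at 6 h and 3446, 3337, 3744 and 3896 at 12 h. All 12 h arrays lay below the 6 h arrays (1.63-fold lower, log2 -0.70 ± 0.09, adjusted p = 1.34e-05). AURKA, the spindle pole kinase Aurora A, read 8125, 9909, 11200.2 and 9959.5 at 6 h and 3894, 4909, 3929 and 5273 at 12 h (2.17-fold lower, adjusted p = 6.25e-07). Of its 2 other probe sets 1 differed in sign. PTTG1, securin, the inhibitor of separase, read 10348, 12716, 14849.6 and 13971 at 6 h and 7289, 7744, 6551 and 7793 at 12 h (1.75-fold lower, adjusted p = 3.46e-05). DLGAP5 and TACC3 of the spindle were 1.67-fold and 1.65-fold lower, CDC20 and UBE2C of the anaphase promoting complex 1.48-fold and 1.40-fold, KIF20A, a cytokinesis motor, 1.46-fold, CCNA2, cyclin A2, 1.42-fold and TOP2A, topoisomerase II alpha, 1.29-fold. CDK1 and PLK1, the kinases at the centre of mitotic entry, had log2 differences of -0.41 ± 0.17 and -0.40 ± 0.13 and were not called, except CDK1 with its probe sets averaged and PLK1 with scaling to the 75th percentile. Without LacZ 6 h replicate 3 the count fell from 25 to 17, and over the alternative settings it ran from 21 to 35.

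Fewer regulators of G1 were called. Of 27 tested cyclins, kinases and inhibitors of G1 3 were lower (11.1%), with a median of -0.08. SKP2, the ubiquitin ligase subunit that removes p27, read 4057, 4244, 5127 and 4091 at 6 h and 2476, 2200.4, 2102 and 3255 at 12 h (1.74-fold lower, adjusted p = 7.56e-05), and CDKN3, a CDK phosphatase, was 1.57-fold lower. CCND3, cyclin D3, was called lower but not with either of 2 arrays left out in turn. CDKN1A, the p21 inhibitor, had a log2 difference of 0.40 ± 0.14 (adjusted p = 0.0929, called without LacZ 6 h replicate 2), and CCND1 of -0.05 ± 0.18, with its other probe set of opposite sign.

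**Figure D3:**
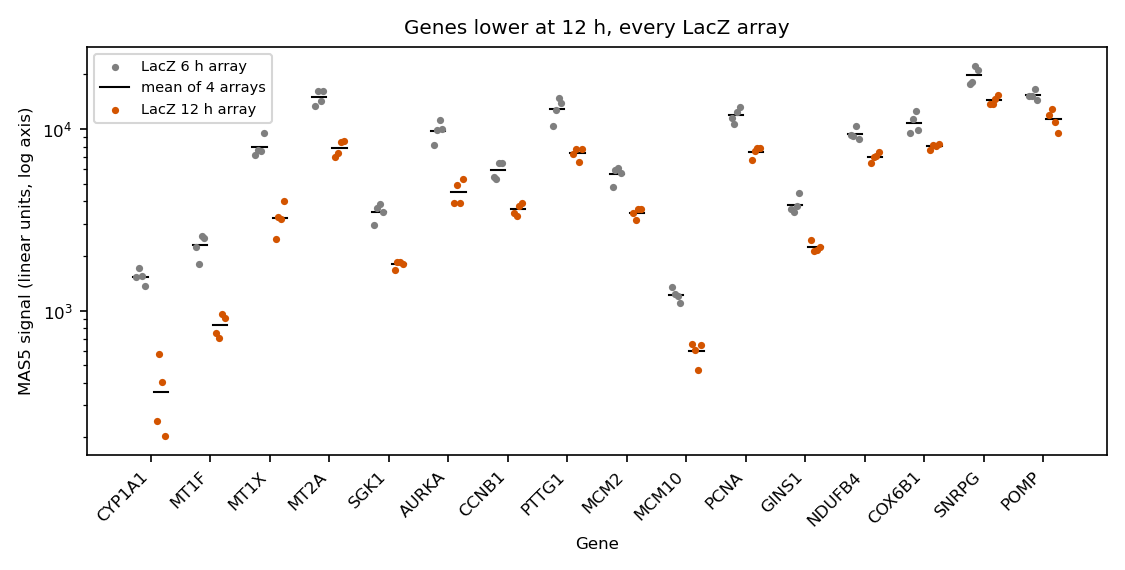
Signals of 16 genes called lower at 12 h on every LacZ array (vertical log axis, MAS5 units), grey for the 4 arrays at 6 h and orange for the 4 at 12 h, with a black line at each mean of 4. The 12 h arrays of each gene lie below its 6 h arrays, by the widest margin for CYP1A1 and by narrow ones for POMP, COX6B1 and SNRPG.

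The promoters of called mitotic genes were searched for CCAAT and TTTGAA, the letters of the CCAAT box and the cell cycle homology region, on both strands. CCAAT stood in 18 of 20 matched promoters (90.0%) and TTTGAA in 12 of 20 (60%), against 38.0% and 9.94% of all tested promoters. In the 65 matched promoters of all tested G2 and mitosis genes, the called ones included, CCAAT stood in 70.8% and TTTGAA in 63.1%. The TTTGAA share thus does not set the called members apart from the list. The CCAAT share was higher in called members, a difference that was not tested. Windows of CCNB1 (chr5:69167030-69167149, plus strand) and CDC20 (chr1:43358841-43358960, plus strand), both GRCh38.p14 and 5′ to 3′, have these motifs in capitals and show the spacing of the pair of CCAAT boxes upstream of the start.
CCNB1: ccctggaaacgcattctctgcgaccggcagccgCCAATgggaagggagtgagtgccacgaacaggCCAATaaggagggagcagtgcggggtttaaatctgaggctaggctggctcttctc
CDC20: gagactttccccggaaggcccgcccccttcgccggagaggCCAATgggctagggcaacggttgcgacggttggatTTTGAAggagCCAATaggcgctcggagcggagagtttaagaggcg
The pair begins at -87 and -55 from the start in CCNB1 and at -100 and -55 in CDC20, where a TTTGAA begins at -65.

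**Figure D4:**
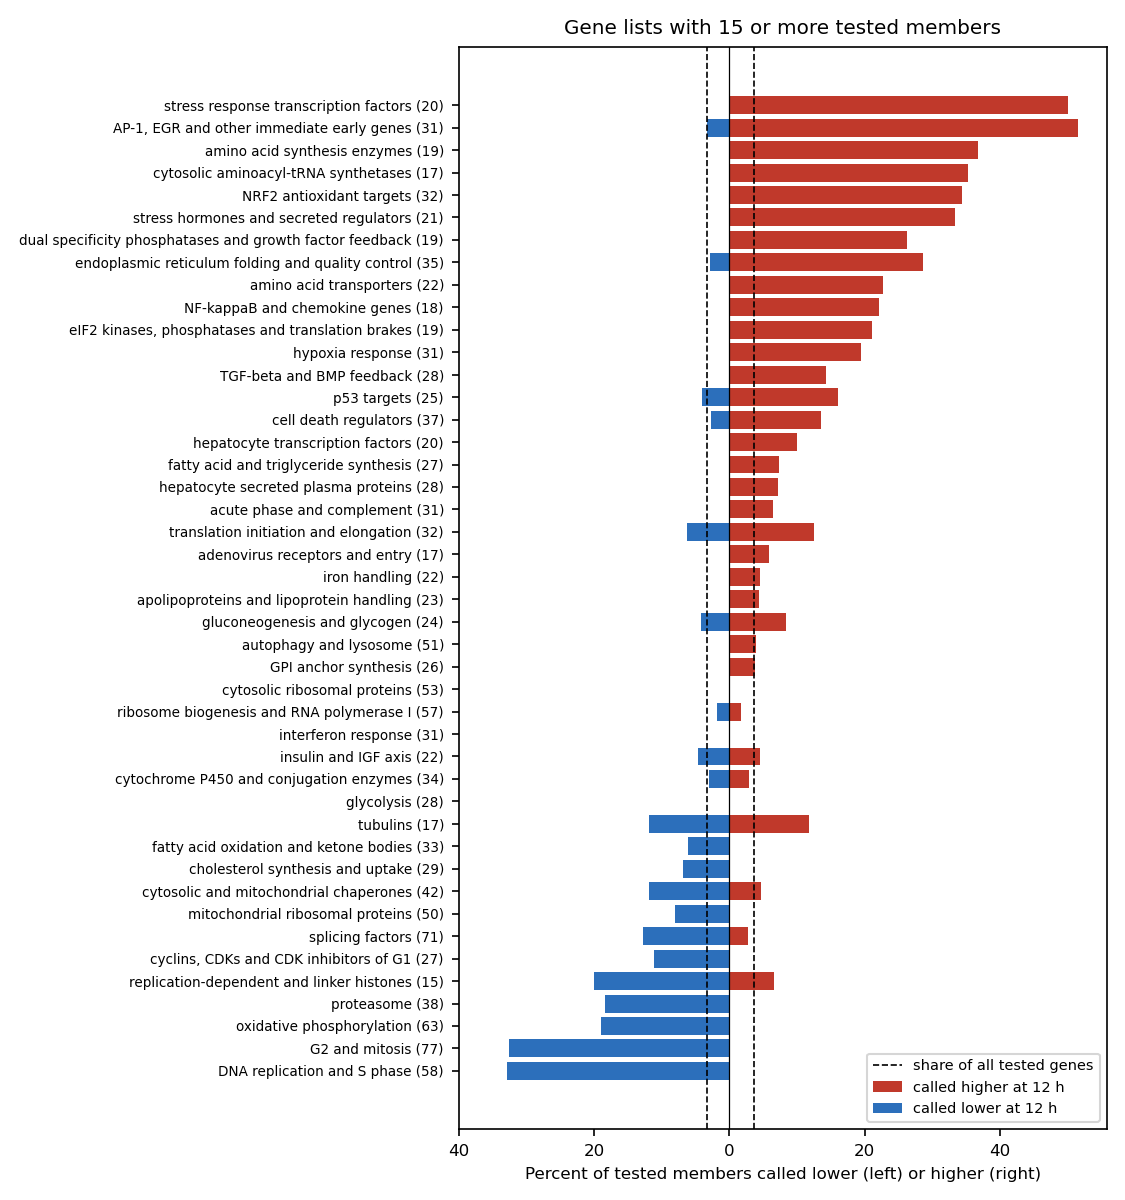
Bars give the percent of tested members called higher at 12 h (red, right) or lower (blue, left) for each list with 15 or more tested members, whose number stands in brackets, and dashed lines mark the 3.64% and 3.26% of all tested genes. Stress factors (50% higher) and immediate early genes (51.6% higher) stand at the top and the S phase (32.8% lower) and G2 and mitosis (32.5% lower) lists at the bottom.

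The calls in several housekeeping complexes were mostly lower at 12 h and small, and most members were not called. Among nuclear-encoded subunits of oxidative phosphorylation, the respiratory chain and ATP synthase, 12 of 63 tested were called (19.0%), all lower, 54 of 63 had a negative difference, and the median was -0.19. Over the alternative settings the count ran from 8 to 19, the latter with scaling to the 75th percentile. NDUFB4, a subunit of complex I, read 9319, 9157, 10400.4 and 8850.2 at 6 h and 6479.5, 7048, 7102 and 7425 at 12 h (1.34-fold lower, adjusted p = 0.000683). COX6B1, of complex IV, read 9462, 11395, 12501 and 9866 at 6 h and 7619.9, 8203, 8065 and 8227 at 12 h (1.34-fold lower, adjusted p = 0.00434). NDUFB3, UQCRQ and COX8A were 1.35-fold, 1.31-fold and 1.29-fold lower. The members are bright genes, the class in which lower calls outnumbered higher ones. Mitochondrial ribosomal proteins gave 4 lower calls of 50 (8%, median -0.12), and 3 to 9 over the alternative settings, the latter with scaling to the 75th percentile. Cytosolic ribosomal proteins gave 0 calls in limma of 53 tested, with 0 higher and 3 lower at an unadjusted p under 0.05 and a median of -0.03. In ribosome biogenesis 1 of 57 was called higher and 1 lower.

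Proteasome genes were lower in 7 of 38 tested (18.4%, median -0.15). The count was 3 without LacZ 12 h replicate 1, 4 without LacZ 12 h replicate 4 and 3 with plain variance moderation. POMP, the assembly factor of the core particle, read 15119.5, 15169, 16703 and 14369.6 at 6 h and 11948, 12969, 10957 and 9482 at 12 h (1.36-fold lower, adjusted p = 0.00221), and PSMA7 and PSMD11 were 1.30-fold and 1.34-fold lower. Of 71 tested splicing factors 9 were lower (12.7%) and 2 higher (2.82%), with a median of -0.10. The lower count ran from 6 to 15 over the alternative settings, the latter with scaling to the 75th percentile. Neither the proteasome nor the splicing count was set against genes of like brightness. In the brightest bin 165 of 1622 tested genes were lower. SNRPG, a core protein of spliceosomal particles, read 17705, 18113, 22381 and 21106 at 6 h and 13772, 13651, 14661 and 15481 at 12 h (1.37-fold lower, adjusted p = 0.000462), and its partners SNRPD2 and SNRPD3 were 1.33-fold and 1.47-fold lower. LSM3, of the U6 particle, and GEMIN6, of the complex that assembles these particles, which stand in no list, were 1.90-fold and 1.77-fold lower, and both are among the 20 largest falls. HNRNPA1, an RNA binding regulator of splicing, rose 1.55-fold (adjusted p = 9.25e-06).

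The lists of hepatocyte functions held 1 to 3 calls each. Beside the 3.64% higher and 3.26% lower of all tested genes, such small counts are given as a description and not as a result about a list. In acute phase and complement 2 of 31 tested genes were called (6.45%), both higher: ITIH3, an inter-alpha-trypsin inhibitor chain (1.61-fold, adjusted p = 0.000391), and SERPINA3, antichymotrypsin (1.38-fold, adjusted p = 0.00247). Other secreted plasma proteins gave 2 higher calls of 28 (7.14%), IGFBP1 and PROC, the latter lost with 4 arrays left out in turn. Hepatocyte transcription factors gave 2 higher calls of 20 (10%), NR0B2 (SHP) and PPARG, both lost without LacZ 6 h replicate 4 and PPARG with 6 other arrays left out as well. In cholesterol synthesis and uptake INSIG2, which retains the SREBP complex, was 1.48-fold lower (adjusted p = 0.000983), and it was 1 of 2 called of 29 tested, the other being IDI1, whose call was lost with 5 arrays left out in turn. VLDLR, the very low density lipoprotein receptor, rose 2.01-fold (adjusted p = 0.00397), 1 of 23 tested apolipoprotein and lipoprotein genes. In gluconeogenesis PCK2, the mitochondrial carboxykinase and an ATF4 target, rose 1.37-fold (adjusted p = 0.00237). ECI2, of fatty acid oxidation, was 1.29-fold lower (adjusted p = 0.00311).

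Interferon response genes gave 0 calls in limma among 31 tested, with 1 higher and 1 lower at an unadjusted p under 0.05, a median of 0.02 and a range of differences from -0.47 to 0.53. In the NF-kappaB and chemokine list 4 of 18 were called (22.2%), all higher, and the count ran from 2 to 6 over the alternative settings. CCL20, a chemokine for dendritic cells and lymphocytes, read 5657, 4318, 5251 and 6072 at 6 h and 10341, 11902, 10879 and 11131 at 12 h (2.08-fold, adjusted p = 1.07e-07). RELA, the p65 subunit, rose 1.5-fold, but the mean of its probe sets was not called (adjusted p = 0.121). Of 25 tested p53 targets 4 were higher (16%) and 1 lower, with a median of 0.05. GDF15 is 1 of the 4, with TNFRSF10B, the TRAIL receptor DR5 (1.73-fold), PMAIP1, the BH3 protein NOXA (2.49-fold), and GADD45A, a growth arrest gene (1.76-fold), and TRIAP1, an inhibitor of apoptosis, was 1.51-fold lower. MDM2, a standard p53 target, had a log2 difference of 0.11 ± 0.24 and was not called, with 3 of its 4 other probe sets opposite in sign. Among 37 tested cell death regulators 5 were higher (13.5%) and 1, BIRC5 (survivin), lower (2.70%), a call lost with 1 array left out. In the list 20 had a negative difference, and the median was -0.04. The higher group holds proteins of opposite action: MCL1 and BCL2L1, which protect mitochondria, rose 1.60-fold and 1.60-fold beside TNFRSF10B and PMAIP1. MAP1LC3B, the autophagosome marker LC3B, rose 1.62-fold (adjusted p = 6.71e-05), 1 of 2 called of 51 autophagy and lysosome genes. PIGA, the enzyme that starts GPI anchor synthesis, rose 1.78-fold (adjusted p = 0.00268), 1 of 26 tested anchor genes.

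The same interval was measured in separate arrays of cells with the GPI-PLD virus, so that the log2 differences of the viruses share no array. The calls are not independent, because both comparisons came from the same fit. Each gene's variance, and the filter, drew on the arrays of both viruses. A gene with a small shared variance is more readily called in both, which bears on the counts of shared calls below. In GPI-PLD cells 782 genes were called (9.64%), 372 higher (4.59%) and 410 lower (5.06%). Both viruses gave a higher call for 183 genes, which is 62.0% of the LacZ and 49.2% of the GPI-PLD higher calls, and a lower call for 154, which is 58.3% and 37.6%. Of the 559 genes called in LacZ 531 (95%) had the same sign in GPI-PLD cells, against 63.9% of all tested genes. Across the 8109 genes the log2 differences of the viruses had a Pearson correlation of 0.411, given as a description, since genes are not independent replicates. The leading members moved in the same direction: under GPI-PLD the log2 differences were 1.71 for CEBPB, 2.17 for ATF3, 1.82 for DDIT3, 1.78 for SLC7A11, 1.67 for GDF15, -0.82 for MT2A, -0.65 for CCNB1 and -1.38 for CYP1A1. Medians in LacZ and GPI-PLD cells were 0.55 and 0.53 for stress factors and 0.64 and 0.60 for immediate early genes. They were -0.32 and -0.50 for S phase, -0.34 and -0.41 for G2 and mitosis, and -0.19 and -0.27 for oxidative phosphorylation. Other lists differed more. The metallothionein and metal list had -0.47 and -0.08, though its 6 lower calls were the same genes under both viruses. Proteasome medians were -0.15 and -0.15, but only 1 of the 7 genes lower in LacZ was called lower in GPI-PLD cells. For mitochondrial ribosomal proteins this was 1 of 4, with medians of -0.12 and -0.21.

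**Figure D5:**
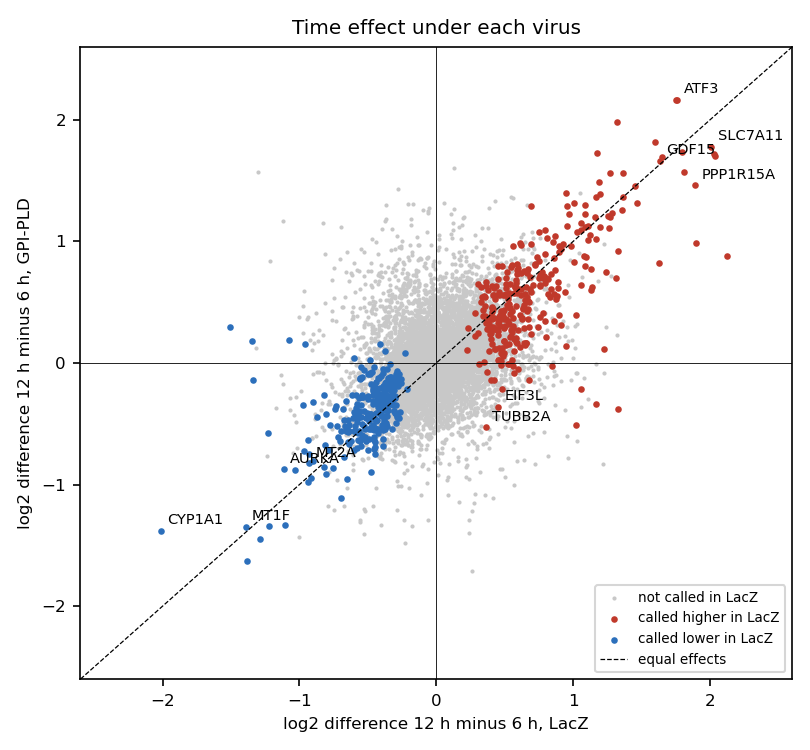
Each point is a tested gene, with its log2 difference between 12 h and 6 h in LacZ cells on the horizontal axis and in GPI-PLD cells on the vertical axis. The dashed line marks equal effects, red and blue points are the genes called higher and lower in LacZ cells, and 531 of those 559 share their sign.

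The test of the difference between the time effects called 1 of the 8109 genes (0.0123%), TUBB2A, a beta tubulin. In LacZ cells it read 2609, 2807, 2720.1 and 2537 at 6 h and 3299, 3904, 3268 and 3354 at 12 h, and in GPI-PLD cells 3519, 3246, 3407 and 3725 at 6 h and 2274, 2362, 2022 and 3009 at 12 h. It was thus higher at 12 h under LacZ (log2 0.36 ± 0.11) and lower under GPI-PLD (log2 -0.53 ± 0.11), without overlap of the times in either. The effect under GPI-PLD minus that under LacZ was -0.89 ± 0.15 (adjusted p = 0.0376). This call held in 8 of 25 alternatives, with adjusted p from 0.00165 to 0.197, and the call of TUBB2A in LacZ cells alone was lost with each of 7 arrays left out in turn (adjusted p up to 0.141, without LacZ 12 h replicate 2). EIF3L, a subunit of initiation factor eIF3, came next. It rose 1.37-fold under LacZ (adjusted p = 0.00709) and had a log2 difference of -0.36 under GPI-PLD, a difference of -0.81 ± 0.15 (adjusted p = 0.0524, called in 4 of 25 alternatives). The next 4 by p, none of them called, were ABAT (-0.68 ± 0.16), DYNLL1 (-0.53 ± 0.12), TCEA1 (0.46 ± 0.11) and COQ7 (0.66 ± 0.16), each with an adjusted p of 0.381. For the genes that were called in LacZ and not in GPI-PLD cells, such as OS9 (log2 0.66 in LacZ and 0.17 in GPI-PLD cells, difference -0.50 ± 0.12) and EPHX1 (0.59 and -0.05, difference -0.65 ± 0.19), the difference between the viruses did not pass the threshold. Such a difference has a larger standard error than either time effect, 0.15 against 0.11 for TUBB2A. The single call therefore does not show that the time effects are equal.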

How the data were processed

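The authors deposited MAS5 signals, per the submitters' processing notes, as intensities on a linear scale for 22283 probe sets on 16 arrays. Each array had a 2% trimmed mean of 1000.3 to 1000.4, and no further scaling was applied. Since the labels give neither replicate numbers nor batches, arrays were numbered in deposited order. Other steps, the scanner included, are not given in the sources used here.

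The scale is log2(signal + 63), with the 20th percentile of all signals as pseudocount. Each gene is represented by the brightest of its probe sets that carry a single symbol, and genes below a mean of 208.5 (40th percentile) were dropped. Limma 3.58.1 (R 4.3.3, statmod 1.5.0) fitted group means on all 16 arrays by lmFit, took the contrasts, and moderated variances by eBayes with trend and robust on 12 residual degrees of freedom, with Benjamini-Hochberg adjustment over 8109 genes. "Plain variance moderation" is eBayes without trend and robust. On simulated data for the LacZ comparison over 8109 genes 49.3% of genes changed 1.5-fold were recovered, 76.1% at 2-fold and 90.9% at 3-fold, and 3 calls were false. The simulation changed 67, 67 and 66 genes at these folds. It drew independent normal noise for each gene, without array or scaling effects, so that its rates need not carry over to the data.

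The comparison and the 47 lists were chosen with earlier results of these data known. Lists are described by counts and medians, with no test of their own. Named were the 20 largest rises and 20 largest falls among called genes with non-overlapping arrays and a mean signal of at least the median (929), up to 8 called members a list by p, with further members of the stress, amino acid, hypoxia, cell cycle, AHR, secreted and hepatocyte lists, the brightest markers, and the 6 genes with the smallest p for a difference between viruses. Errors after log2 differences are standard errors, and those after signals standard deviations (n = 4). Promoters are from RefSeq (GRCh38.p14), at the first start listed for a gene. The hypoxia element core ACGTG and the AHR element core GCGTG were searched as well. ACGTG stood in 2 of 5 matched promoters of called hypoxia genes, 13 of 26 of tested ones and 26.9% of all tested promoters. GCGTG stood in 4 of 7 matched promoters of tested AHR targets and 50.5% of all tested promoters. The MT2A window and its motif were chosen after the values were seen. Tables were read with Python 3.11.15 and pandas 2.3.3 and plots drawn with matplotlib 3.10.9.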

Additional observations from a re-analysis of the deposited data

Results flagged for a closer look

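The difference of the time effect between the viruses passed the test for TUBB2A, at -0.89 on the log2 scale (GPI-PLD minus LacZ, adjusted p = 0.0376), and its LacZ 12 h replicate 2 read 3904 against 3268 to 3354 on the other 12 h arrays. Leaving that array out gave a log2 difference of 0.30 in LacZ cells (adjusted p = 0.141).

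Single arrays stood far from the other 3 of their group, by Dixon's criterion at 95%, in 16 of the 402 groups of 4 LacZ arrays checked for the genes named, where chance alone gives about 1 in 20. LacZ 12 h replicate 2 accounts for 5 of them and LacZ 12 h replicate 4 for 4. DDIT3 read 790 on LacZ 6 h replicate 1 against 1182 to 1198 on the others, and without it the rise was 1.46 on the log2 scale (adjusted p = 2.87e-07). EGR1 read 2317 on LacZ 12 h replicate 4 against 3237 to 3390.4. FST read 13060.1 on LacZ 12 h replicate 2 and TARS1 4803 on the same array, both the highest of their group, as were TCEA1 at 10998 and EIF4H at 5945. GMNN read 5749 on LacZ 12 h replicate 4, the lowest, SPP1 21083 on it, also the lowest, and UBE2C 3084 on it, the highest. HNRNPA1 read 5012 on LacZ 12 h replicate 1, its lowest, and ABAT 6664 on LacZ 12 h replicate 3, its highest. UQCRQ read 12258 and IARS1 15440.5 on LacZ 6 h replicate 3, each the highest, and without that array IARS1 had an adjusted p of 0.00747. RBM14 read 1341 on LacZ 6 h replicate 4, its lowest, and SERPINA3 7675 on the same array, also its lowest, and rose by 0.37 on the log2 scale without it (adjusted p = 0.0108). Of these genes that were called in LacZ cells, the call was lost without the deviating array for TUBB2A alone.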

How the results depend on the processing

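Beside the settings used, arrays were rescaled (quantiles, or 75th percentile), the pseudocount dropped or taken 4 times, the filter dropped or raised to the 60th percentile, a gene's probe sets averaged or each tested, the variance moderation made plain, arrays weighted, the 8 LacZ arrays fitted alone, and arrays left out singly. The LacZ count of 559 ran from 421 (plain moderation) to 636 (filter at the 60th percentile). With 1 of the 8 LacZ arrays left out it ran from 390 to 531, or 208 to 288 higher and 182 to 243 lower. With each LacZ array left out in turn 312 genes were called each time. GPI-PLD arrays also entered the fit. With 1 of those left out 278 to 332 genes were higher and 240 to 303 lower in LacZ cells. The GPI-PLD count of 782 ran from 548 to 731 with a GPI-PLD array left out. These counts held 291 to 333 higher and 257 to 405 lower genes, the 257 without GPI-PLD 6 h replicate 3. The 1 gene whose time effect differed between the viruses became 0 with either rescaling, no filter, averaged probe sets, plain moderation and every probe set tested, 2 with 4 times the pseudocount and with the filter at the 60th percentile, and 0 to 3 with an array left out. The cause was not tested.

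Of 172 named genes that were called, 25 lost the call in at least 1 of 19 alternatives. Of arrays left out, these alternatives cover the LacZ arrays only. Reversed signs occurred only in genes that were not called. AHR was at -0.008 under quantile normalization, -0.024 under scaling to the 75th percentile and from -0.086 to 0.237 with an array left out. ALB was at -0.04 under scaling to the 75th percentile and from -0.028 to 0.039 with an array left out. With an array left out AFP ran from -0.091 to 0.026, CCND1 from -0.125 to 0.101 and MDM2 from -0.005 to 0.185. With probe sets averaged MDM2 was at -0.163, EIF2AK2 at -0.072 and PDIA4 at -0.038. No paired analysis was possible because the labels give no replicate numbers. The 4 arrays a time limit the precision.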

Other observations

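Several lists not described above had calls in both directions. Of 42 tested cytosolic and mitochondrial chaperones 5 were lower (11.9%) and 2 higher (4.76%), with a median of -0.10. These counts were not set against genes of like brightness, and in the brightest bin 165 of 1622 tested genes were lower. HSPE1, the mitochondrial chaperonin lid, was 1.29-fold lower (adjusted p = 0.00205) and DNAJB1, a heat shock cochaperone of the cytosol, 1.31-fold lower (adjusted p = 0.00446), while DNAJA2, a cytosolic cochaperone, was 1.41-fold higher (adjusted p = 0.00354). In translation initiation and elongation 4 of 32 tested genes were higher (12.5%) and 2 lower (6.25%), with a median of 0.01. ETF1, the release factor, rose 1.39-fold and EIF4H, a helper of the cap helicase, was 1.26-fold lower. In the list of ribosome biogenesis WDR43 was the higher gene (1.60-fold, adjusted p = 0.00222) and NHP2 the lower (1.31-fold, adjusted p = 0.0051). The calls in the histone list (1 higher and 3 lower of 15 tested) were each lost with at least 1 array left out, and without LacZ 6 h replicate 4 no histone stayed called lower. Of 17 tested genes of adenovirus receptors and entry 1, RAB5A, was called higher (log2 0.36, adjusted p = 0.0462), and its call was lost with each of 7 arrays left out in turn.

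Of the called genes in no list, the following were chosen after their values were seen and carry no count or test of their own. NAB2, a corepressor of EGR factors, read 266, 77.8, 282 and 49.8 at 6 h and 697, 881, 836 and 943 at 12 h, without overlap, and was called higher (adjusted p = 5.57e-05). Its mean at 6 h lay under the 208.5 required of the mean over all arrays, so that it was tested through its brighter arrays, and no fold is given. GTPBP2, a ribosome rescue factor, rose 2.39-fold, IFRD1 2.12-fold, CCNL1, a cyclin of splicing kinases, 1.90-fold and GFPT1, the enzyme that starts the hexosamine pathway, 1.82-fold. TXNIP, the thioredoxin binding protein whose transcription follows glucose, read 1266, 1244, 1376 and 1275 at 6 h and 373, 421, 790.4 and 556 at 12 h. Its arrays did not overlap, and it was 2.34-fold lower (log2 -1.23 ± 0.18, adjusted p = 6.71e-05), with a log2 difference of -0.57 under GPI-PLD (adjusted p = 0.526 for the difference between the viruses). HMGN2, a nucleosome binding protein, was 1.48-fold lower (adjusted p = 8.15e-06) on a probe set whose suffix marks possible cross-hybridization, RBM14 1.73-fold and TMEM14A 1.71-fold.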
